A study of Mus musculus with 6 samples.

Results

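Interferon-stimulated genes were described in healing bone of mice without Cyp24a1, the enzyme that breaks down active vitamin D. The set held 34 listed genes that cells switch on when interferon binds its receptors, divided by role into 20 type I interferon targets, 5 interferon transcription factors, 6 interferon-gamma GTPases and 3 genes of peptide processing and transport. Members were found by gene symbol on probe sets that list 1 symbol, and each gene was represented by its probe set with the highest mean over all arrays. In this way 32 of the 34 were measured, on 47 probe sets, among 18193 genes in all. Isg15 was not read because its probe set lists several symbols, and Ifi44 was not found under its symbol in the probe table used. All 32 stayed in, as no filter on level was used.

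The study set Cyp24a1 (-/-) mice, called null here, against Cyp24a1 (+/-) littermates, with 3 arrays in each group. All animals were 12 weeks old, had a C57BL6J x 129SV mixed background and had a tibia cut and held by an intramedullary rod. Callus, which bridges the fracture during repair, was collected on day 14, and its RNA was read on the Affymetrix Mouse 430_2 array. The comparison asks which callus transcripts differ when both copies of Cyp24a1 are lost instead of 1. The labels name no wild-type group among these samples, and they leave unsaid whether every sample was a mouse of its own. The p-values therefore measure the spread between these 6 samples, and their number limits the precision.

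Interferons are secreted proteins of host defence. Type I interferons signal through the receptor pair Ifnar1 and Ifnar2 and the kinases Jak1 and Tyk2 to a complex that holds Stat2 and Irf9 and binds the interferon-stimulated response element (ISRE) in target promoters. Interferon-gamma signals through its own receptor to factors that bind the gamma-activated sequence (GAS), and it is known above all for inducing macrophage GTPases and the antigen presentation machinery. In bone, type I interferon and interferon-gamma are both known to restrain osteoclast formation.

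Values are log2 signals as deposited, so a step of 1 is a doubling of the signal. Levels of different probe sets are not comparable and are not set against each other below. As a guide to the background, probe sets of sex-linked transcripts lay between 1.77 and 3.52 on arrays without the transcript. Of the tissue markers, the bone collagen gene Col1a1 lay between 13.57 and 14.28, the cartilage collagen gene Col2a1 between 7.04 and 9.76 and the muscle actin gene Acta1 between 14.40 and 14.49. Of 9 chondrocyte markers, Hapln1 lay within the background guide on all arrays and Col10a1, at 3.11, on null replicate 1. Genes of bone marrow stood apart on null replicate 1 and heterozygous replicate 3. There 15 neutrophil and granulocyte genes, each centred on its own mean over all arrays, averaged -2.62 and -3.07, against 1.18 to 1.75 on the other 4 arrays.

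No member differed between the genotypes by limma's test. Of all 45037 probe sets, 0% passed at an adjusted p of 0.05, so 0 of 32 members is the background. The lowest adjusted p over all probe sets was 0.775. At an unadjusted p under 0.05 there was 1 member, the GTPase gene Irgm1, and the share over all genes was 4.49%. The null values lay wholly above the heterozygous values in 0 members, where 4.14% of all genes did so. They lay wholly below in 1 member, Irgm1 again, where 5.99% of all genes did so. A two-sided exact permutation test of 3 arrays against 3 cannot give a p below 0.1.

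Small differences leaned to the null side. The null mean was the higher one in 24 of the 32 members, 75.0% against 49.7% of all genes, yet the median difference was 0.07 (null minus heterozygous, log2), against -0.0017 over all genes. This lean rested on single arrays, since leaving out null replicate 1 gave a count of 5, as did leaving out heterozygous replicate 2, while leaving out null replicate 2 or heterozygous replicate 1 gave 27. Only 5 members, Mx2, Ifi35, Irf8, Irgm1 and Psmb8, kept 1 direction whichever array was left out, and 27 turned at least once. In 29 of the 32, the difference between genotypes was smaller than the spread of the values within null callus and within heterozygous callus, the exceptions being Mx2, Irf8 and Irgm1.

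**Figure D1:**
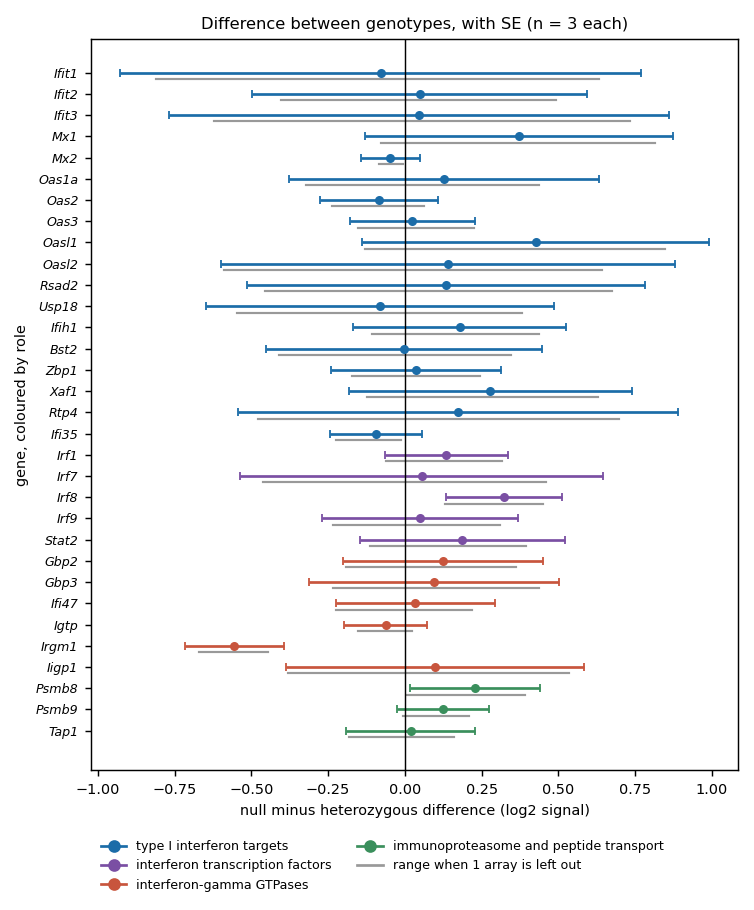
Difference of each member between genotypes (null minus heterozygous, log2 signal, horizontal axis), with its SE as the capped bar and, as a grey line under it, the range when 1 array at a time was left out (3 null and 3 heterozygous arrays). Most bars cross 0, and Irgm1 at -0.55 lies apart on the negative side.

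What the members did show was a wide swing between arrays, also between those of the same genotype. The distance from the lowest to the highest array was taken over all 6 arrays of both genotypes. Its median over the members was 1.28 on the log2 scale, or 2.43-fold, against 0.53 or 1.44-fold over all genes. This distance was above 1 in 19 of 32 members (59.4%) and in 16.7% of all genes. The SD within a group had a median of 0.51 over the members and of 0.19 over all genes. All genes include 3992 of 18193 that lay at or under the background guide on every array, as did 0 members. The part of signal level in these contrasts was not tested. The members' swing ran in a shared order. Among the null arrays, replicate 1 was above replicate 3 and replicate 3 above replicate 2 in 24 of 32 members, against 24.8% of all genes. Among the heterozygous arrays, replicate 3 was above replicate 1 and replicate 1 above replicate 2 in 27 of 32, against 21.0% of all genes. Both orders held in 21 members (65.6%) and in 9.77% of all genes. These shares are descriptions of these 6 arrays, because the genes of 1 list are not independent of each other.

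**Figure D2:**
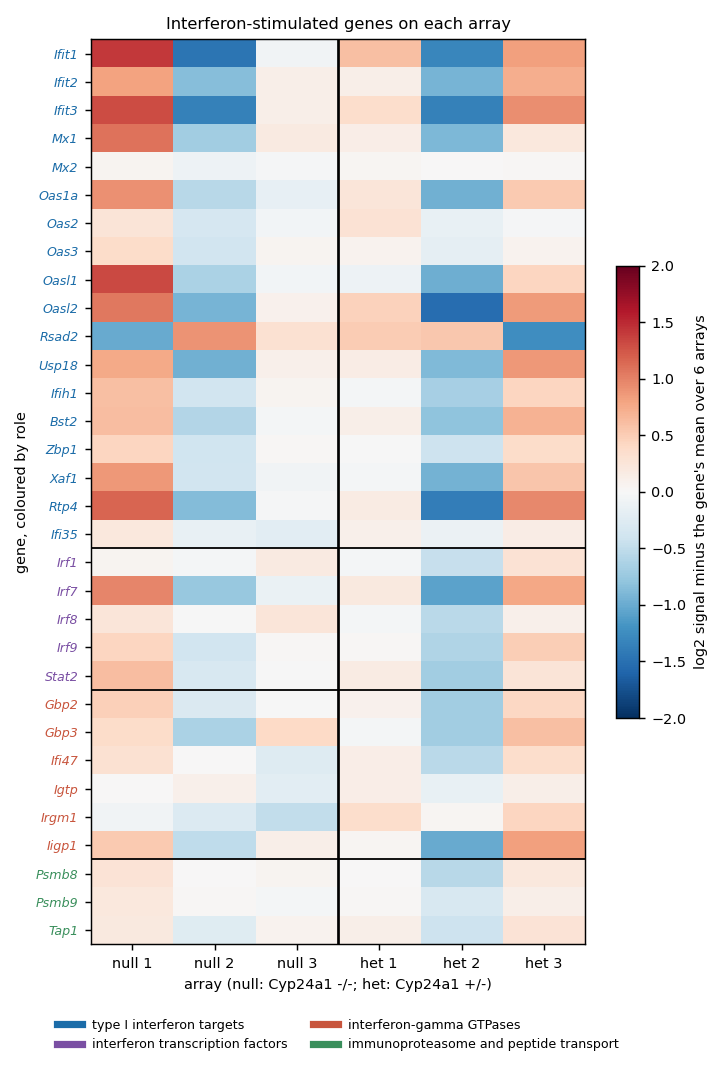
Level of each of the 32 members (rows, grouped by role) on each of the 6 arrays (columns, null on the left), as log2 signal minus the gene's own mean over the 6 arrays. Null replicate 1 and heterozygous replicate 3 are mostly red, null replicate 2 and heterozygous replicate 2 mostly blue, and the Rsad2 row runs the other way.

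The type I targets carried the widest swing. The Ifit genes code for tetratricopeptide proteins that hold back translation of foreign RNA, and all of them lie on chromosome 19. Ifit1 was at 6.99, 4.11 and 5.50 in null callus and at 6.17, 4.27 and 6.40 in heterozygous callus. The groups overlapped almost fully, and the highest and the lowest value were both null arrays, 7.39-fold apart. The difference was -0.08 (SE 0.85), and it ran from -0.81 to 0.63 as single arrays were left out. Ifit3 was at 8.48, 5.83 and 7.31 in null callus and at 7.54, 5.83 and 8.12 in heterozygous callus. Its lowest null and lowest heterozygous values were the same to 2 decimals, its whole range was 6.30-fold, and its difference was 0.04 (SE 0.81). Ifit2 kept the same order of arrays within each group, with a range of 1.74 and a difference of 0.05 (SE 0.55). Limma's adjusted p was 0.999 for each of the Ifit genes.

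The promoters of Ifit1 and Ifit3 are shown because these genes had the widest ranges among the members and hold the letters of the response element. They are RefSeq sequences on GRCm38.p6, from 250 bases before the start of the gene to 50 after it, written 5′ to 3′ on the strand of the gene. Capitals mark matches to the ISRE letters, searched as GAAANNGAAA on either strand, so that a match reads GAAANNGAAA or TTTCNNTTTC. Ifit1 lies at chr19:34640639-34640938 on the plus strand, with matches that begin 104 and 85 bases before the start. Ifit3 lies at chr19:34583279-34583578 on the plus strand, with matches that begin 156 and 122 bases before the start.
Ifit1: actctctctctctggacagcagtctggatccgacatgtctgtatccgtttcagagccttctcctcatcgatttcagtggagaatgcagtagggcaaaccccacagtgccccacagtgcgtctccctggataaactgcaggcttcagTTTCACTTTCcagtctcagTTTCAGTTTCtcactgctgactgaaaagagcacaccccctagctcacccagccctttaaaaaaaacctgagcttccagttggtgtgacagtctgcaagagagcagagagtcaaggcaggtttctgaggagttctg
Ifit3: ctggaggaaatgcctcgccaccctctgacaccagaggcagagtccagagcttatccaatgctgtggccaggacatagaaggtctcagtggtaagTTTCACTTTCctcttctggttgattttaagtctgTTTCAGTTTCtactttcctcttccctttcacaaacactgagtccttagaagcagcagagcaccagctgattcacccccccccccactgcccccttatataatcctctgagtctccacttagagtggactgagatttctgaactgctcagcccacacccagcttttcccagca
Each of the 2 promoters holds both TTTCACTTTC and TTTCAGTTTC, in that order.

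The oligoadenylate synthetase family, which makes the messenger that activates RNase L, lies on chromosome 5. Its synthetase Oas1a ranged over 1.87, Oas2 over 0.63 and Oas3 over 0.75, with differences of 0.13 (SE 0.50), -0.08 (SE 0.19) and 0.02 (SE 0.20). The related genes Oasl1 and Oasl2 ranged over 2.30 and 2.59, with differences of 0.43 (SE 0.56) and 0.14 (SE 0.74). For Oasl1, 1 array (heterozygous replicate 2, at 3.45) lay within the background guide. None of these differences exceeded its own SE, and all 5 genes were lower on null replicate 2 than on the other null arrays.

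The remaining type I targets repeated the picture. Differences were 0.37 (SE 0.50) for the antiviral GTPase Mx1 and 0.18 (SE 0.35) for Ifih1, the RNA sensor known as MDA5. They were 0.28 (SE 0.46) for the apoptosis-associated Xaf1 and 0.17 (SE 0.72) for Rtp4, a chaperone of membrane receptors. Usp18, the protease that removes Isg15 from proteins and damps receptor signalling, had -0.08 (SE 0.57). Bst2, or tetherin, which retains budding virus, had -0.0021 (SE 0.45). Zbp1, a sensor of Z-form nucleic acid, had 0.04 (SE 0.28), and Ifi35 had -0.09 (SE 0.15). Ranges over the arrays were 2.55 for Rtp4, 1.98 for Mx1, 1.84 for Usp18, 1.81 for Xaf1, 1.51 for Bst2 and 1.26 for Ifih1, but 0.86 for Zbp1 and 0.42 for Ifi35. Over the 18 measured type I targets, 14 were highest on null replicate 1, and in 15 the lowest pair of arrays was null replicate 2 with heterozygous replicate 2. The corresponding shares over all genes were 25.0% and 8.42%.

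Among the type I targets, Rsad2 and Mx2 stood out from the list, and they were singled out after their values were seen. Rsad2, or viperin, makes a chain-terminating nucleotide against viruses. It was at 7.91, 9.83 and 9.23 in null callus and at 9.43, 9.46 and 7.68 in heterozygous callus. Its lowest arrays were thus null replicate 1 and heterozygous replicate 3, on which most other members were highest. Both other probe sets of Rsad2 were also lowest on these 2 arrays, the second at 6.20 and 6.08 and the third at 5.23 and 5.23. Outside the members, the interferon targets Isg20 and Ifitm1 were also lowest within each genotype on these 2 arrays. Isg20 was at 6.27 and 6.20, and Ifitm1 at 7.85 and 6.00. The neutrophil and erythroid genes were low on the same arrays, and their part in the Rsad2 values was not tested. In a bulk sample, fewer cells of a type and less RNA per cell cannot be told apart. The difference between genotypes was 0.13 (SE 0.65). Mx2 was nearly flat, at 3.89, 3.73 and 3.82 in null callus and at 3.87, 3.84 and 3.86 in heterozygous callus, close above the background guide. Its range of 0.16 was smaller than that of all but 2.28% of genes.

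Within each genotype, Rsad2 was lowest on the array where Ifit1 and Ifit3 were highest. Its promoter is shown for comparison with the Ifit promoters, since it too holds the ISRE letters. It lies at chr12:26456403-26456702 on the minus strand, with 1 match that begins 120 bases before the start.
Rsad2: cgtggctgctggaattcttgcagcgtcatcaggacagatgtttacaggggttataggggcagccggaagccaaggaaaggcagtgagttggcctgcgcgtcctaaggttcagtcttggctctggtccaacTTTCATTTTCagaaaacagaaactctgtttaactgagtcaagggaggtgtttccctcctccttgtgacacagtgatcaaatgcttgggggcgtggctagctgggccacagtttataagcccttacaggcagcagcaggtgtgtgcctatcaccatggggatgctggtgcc

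**Figure D3:**
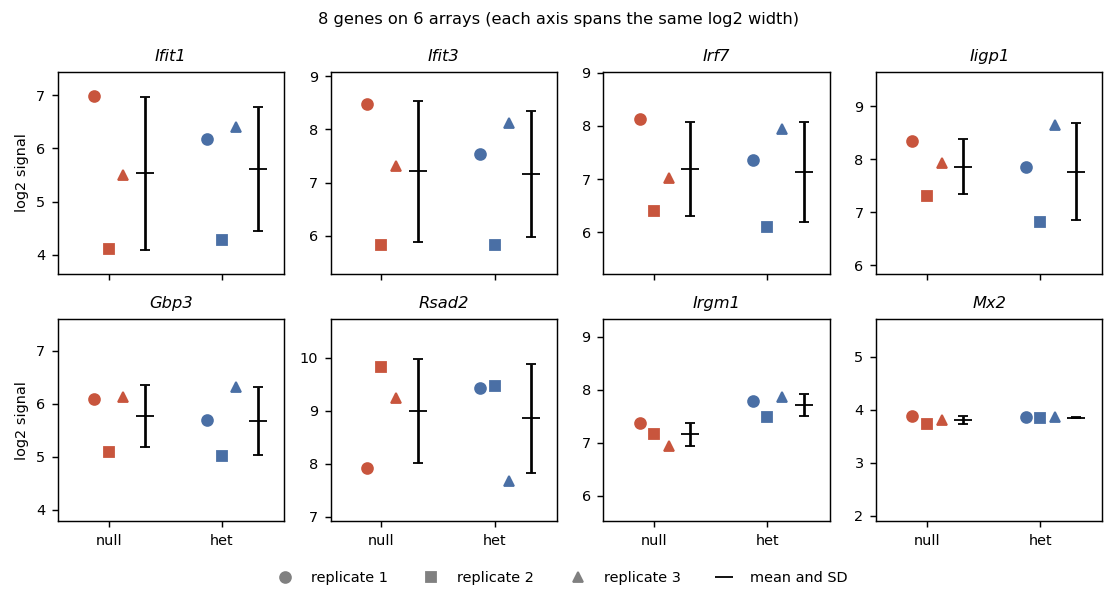
Log2 signal (vertical axis) of 8 members on each array, null on the left and heterozygous on the right, with the replicate given by the symbol and the mean and SD (n = 3) as a bar beside the points; all panels span the same log2 width. In Ifit1, Ifit3, Irf7 and Iigp1 the points of each genotype spread widely and overlap, Rsad2 has the inverse order, Mx2 is flat, and the 3 null values of Irgm1 (6.94 to 7.36) lie below the 3 heterozygous values (7.48 to 7.86).

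Both orders of arrays held in 4 of the 5 transcription factors of the pathway, and Irf1, the exception, was highest among null arrays on replicate 3. Irf7, the factor that amplifies type I interferon production, was at 8.14, 6.40 and 7.03 in null callus and at 7.36, 6.10 and 7.94 in heterozygous callus. Its range was 4.11-fold, the groups overlapped, and the difference was 0.05 (SE 0.59). Stat2, the type I signal transducer, was at 5.66, 4.72 and 5.03 in null callus and at 5.20, 4.35 and 5.30 in heterozygous callus, a difference of 0.19 (SE 0.33). Its DNA-binding partner Irf9 differed by 0.05 (SE 0.32), and Irf1, the factor induced by interferon-gamma, by 0.13 (SE 0.20). The groups overlapped in all of these genes.

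Irf8, a factor of macrophage and dendritic cell development, was the only one of the 5 with a difference above its SE. It averaged 8.03 ± 0.14 in null callus and 7.71 ± 0.34 in heterozygous callus (SD, n = 3 each), a difference of 0.32 (SE 0.19). The groups overlapped through heterozygous replicate 3, at 7.96, and null replicate 2, at 7.86. The two-sided exact permutation p was 0.2 and limma's adjusted p 0.999. Its second probe set differed by 0.22 (SE 0.29). All 5 factors had the higher mean in null callus and were lowest on heterozygous replicate 2.

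The interferon-gamma GTPases were set beside the type I targets. They comprise guanylate-binding proteins (Gbp2, Gbp3) and immunity-related GTPases (Iigp1, Irgm1, Igtp, Ifi47), which attack the vacuoles of intracellular microbes or steer that attack. Their median difference was 0.06, with 4 of 6 higher in null callus, and that of the type I targets 0.05, with 12 of 18 higher. Their median range over the arrays was 1.05, or 2.07-fold, and that of the type I targets 1.82, or 3.54-fold. The range was above 1 in 3 of 6 GTPases and in 13 of 18 type I targets. The highest array was heterozygous replicate 3 in 4 of 6 GTPases and in 2 of 18 type I targets, while null replicate 1 was highest in 1 of 6 and in 14 of 18. These counts describe 6 and 18 genes and were not tested.

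Iigp1 was at 8.34, 7.31 and 7.93 in null callus and at 7.85, 6.81 and 8.64 in heterozygous callus. The heterozygous values enclosed the null values, with a difference of 0.10 (SE 0.49), and the second Iigp1 probe set differed by -0.07 (SE 0.36). Gbp3 was at 6.10, 5.09 and 6.13 in null callus and at 5.69, 5.02 and 6.32 in heterozygous callus, a difference of 0.09 (SE 0.41). Gbp2 on the same chromosome differed by 0.12 (SE 0.33), Ifi47 by 0.03 (SE 0.26) and Igtp by -0.06 (SE 0.13). Igtp, also named Irgm3, had a range of 0.34, below the median of all genes.

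Irgm1, the regulator that keeps the effector GTPases off the cell's own membranes, was the 1 member whose groups did not overlap. It was at 7.36, 7.17 and 6.94 in null callus and at 7.79, 7.48 and 7.86 in heterozygous callus. Every null value lay below every heterozygous value. Means were 7.16 ± 0.21 in null callus and 7.71 ± 0.20 in heterozygous callus (SD, n = 3 each), so that null callus was 1.47-fold lower, a difference of -0.55 (SE 0.16). The two-sided exact permutation p was 0.1, the smallest possible, and limma gave an unadjusted p of 0.012 and an adjusted p of 0.999, so the difference did not pass. It lay between -0.67 and -0.45 as single arrays were left out. The array has 1 probe set for it, and its range within null callus was 0.43 and within heterozygous callus 0.38, both smaller than the difference. With 32 members and 5.99% of all genes wholly lower in null callus, 1 such member is a share near the background.

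The promoters of Irgm1 and Gbp3 are shown because they hold the ISRE letters near the start and represent the GTPases with different patterns across arrays. Irgm1 lies at chr11:48871371-48871670 on the minus strand, with overlapping matches that begin 30 and 24 bases before the start. Gbp3 lies at chr3:142559794-142560093 on the plus strand, with overlapping matches that begin 45 and 39 bases before the start. A second start listed for Gbp3 has no match in its window.
Irgm1: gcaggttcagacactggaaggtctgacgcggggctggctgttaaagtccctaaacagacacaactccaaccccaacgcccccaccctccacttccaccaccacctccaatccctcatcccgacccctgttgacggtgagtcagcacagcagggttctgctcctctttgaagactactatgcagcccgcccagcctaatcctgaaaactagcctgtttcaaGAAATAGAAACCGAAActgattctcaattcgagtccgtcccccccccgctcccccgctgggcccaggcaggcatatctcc
Gbp3: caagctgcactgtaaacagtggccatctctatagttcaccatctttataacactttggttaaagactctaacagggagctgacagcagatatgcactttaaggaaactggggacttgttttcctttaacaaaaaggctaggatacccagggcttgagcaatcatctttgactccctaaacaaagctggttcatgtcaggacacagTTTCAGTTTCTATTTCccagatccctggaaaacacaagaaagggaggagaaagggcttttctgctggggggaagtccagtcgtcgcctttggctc
In Irgm1 the letters are on the strand shown, and in Gbp3 they are on the opposite strand.

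The genes of peptide processing and transport had the narrowest ranges of the 4 role groups, with a median of 0.68. Psmb8, a catalytic subunit of the immunoproteasome, was at 8.28, 8.01 and 8.06 in null callus and at 8.01, 7.44 and 8.21 in heterozygous callus. The groups overlapped, and the difference was 0.23 (SE 0.21). Tap1, a subunit of the peptide transporter, was at 6.99, 6.56 and 6.87 in null callus and at 6.91, 6.38 and 7.06 in heterozygous callus, a difference of 0.02 (SE 0.21). Psmb9, the other immunoproteasome subunit listed, differed by 0.12 (SE 0.15). All of them lie on chromosome 17, and the promoter windows of Psmb9 and Tap1, on opposite strands, share 275 bases.

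Probe sets of 1 gene mostly had the same direction. Of the 32 members, 11 had more than 1 probe set, and in 4 of these (Iigp1, Tap1, Xaf1 and Zbp1) the probe sets differed in direction. The second probe set of Xaf1 and the other 3 of Tap1 lay at or under 3.50 on every array, within the background guide. Probe sets that end in s_at or x_at can read related transcripts, and among those used this applies to Ifi35.

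Across all members with a promoter entry, the ISRE letters were found in 13 of 27 (48.1%), against 3.99% of 27025 genes, where a gene with several listed starts counts if any window holds them. By role they were in 8 of 14 type I targets, in 4 of 5 GTPases, in 1 of 5 transcription factors and in 0 of 3 genes of peptide processing and transport. The GAS letters, searched as TTCNNNGAA, were in 8 of 27 members (29.6%), against 9.55% of all genes. They were in 4 of 14 type I targets, 2 of 5 factors, 1 of 5 GTPases and 1 of 3 genes of peptide processing and transport, and in Bst2 a GAS match overlapped an ISRE match. The members were chosen as known interferon targets, so these shares say nothing new of the data, and a match of letters is not a binding site. Mx1, Mx2, Oas2, Usp18, Zbp1, Rtp4 and Iigp1 had no entry. Of the 25 genes with both a promoter and a value, the 12 with ISRE letters had a median range over arrays of 1.30 (0.34 to 2.89) and the 13 without had 0.88 (0.42 to 2.59). The ranges overlapped almost fully, with Irf7 and Oasl2 among the widest members without the letters in this window.

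The interferons themselves, upstream of the members, were mostly not readable. Of 9 measured interferon genes, 8 lay at or under it on all arrays, so no fold is given for them. Ifnb1 was between 2.99 and 3.48 in null callus and between 3.12 and 3.28 in heterozygous callus. Ifng was between 2.22 and 2.39 in null callus and between 2.61 and 2.67 in heterozygous callus. Ifnz, the exception, was at 4.85, 3.68 and 4.12 in null callus and at 3.52, 3.94 and 4.29 in heterozygous callus, with overlap. Neither Ifnb1 nor Ifng was therefore well above background on these probe sets.

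Receptors and kinases were measured in 9 of 10 listed genes, and 8 of the 9 had the higher mean in null callus, with a median difference of 0.22. The type I receptor chain Ifnar1 differed by 0.34 (SE 0.23), the interferon-gamma receptor chain Ifngr1 by 0.33 (SE 0.19), the shared kinase Jak1 by 0.28 (SE 0.20) and the lambda receptor chain Il10rb by 0.36 (SE 0.31). The groups overlapped in each of them. Of 14 sensors and inducing kinases, 11 had the higher mean in null callus. Cgas, which detects cytosolic DNA, was at 4.80, 4.57 and 4.69 in null callus and at 4.32, 4.43 and 4.19 in heterozygous callus. Ikbke, a kinase that activates Irf3 and Irf7, was at 6.30, 6.02 and 6.18 in null callus and at 5.99, 5.47 and 5.83 in heterozygous callus. These were the 2 of 14 in which all null values lay above all heterozygous values, with differences of 0.38 (SE 0.12) for Cgas and 0.40 (SE 0.16) for Ikbke. The endosomal RNA sensor Tlr7 differed by 0.85 (SE 0.44) with overlap, and Tlr3 by 0.39 (SE 0.22). By limma, the adjusted p was 0.999 in each case, and none passed.

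Of 10 genes listed as negative regulators, 9 (90.0%) had the higher mean in null callus, against 49.7% of all genes. The exception was Isg20, an interferon target and not a regulator, with a difference of -0.18 (SE 0.84). The SUMO ligase gene Pias1 was at 7.94, 7.99 and 7.97 in null callus and at 7.75, 7.76 and 7.70 in heterozygous callus. This difference of 0.23 (SE 0.09) was larger than the spread of the 3 values in either group. The repressor Irf2 differed by 0.13 (SE 0.10), again without overlap. All null values thus lay above all heterozygous values in 2 of the 10 genes (20.0%), against 4.14% of all genes. Neither Pias1 nor Irf2 passed, each with an adjusted p of 0.999 by limma.

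Further targets outside the 34 were read for comparison. Of 36 further type I targets, 31 (86.1%) had the higher mean in null callus, against 49.7% of all genes, with a median difference of 0.25. Their range over arrays was above 1 in 17 (47.2%), against 16.7% of all genes. On heterozygous replicate 2, 25 of the 36 (69.4%) were lowest, against 17.6% of all genes. The lean to the null side in the lists outside the members was not recounted with single arrays left out. The nuclear body gene Sp100 differed by 0.36 (SE 0.13) and Eif2ak2, the kinase PKR that blocks translation, by 0.37 (SE 0.15), both with all null values above all heterozygous values. This split was found in 4 of the 36 (11.1%), against 4.14% of all genes, the others being Trim21 at 0.27 (SE 0.14) and Sp110 at 0.18 (SE 0.10), named after their values were seen. Epsti1 differed by 0.72 (SE 0.34) and Samd9l by 0.31 (SE 0.16), with overlap. Of 16 further interferon-gamma targets, 7 (43.8%) had the higher mean in null callus, with a median difference of -0.04. Gbp6 was at 7.09, 7.27 and 6.79 in null callus and at 8.57, 7.90 and 7.51 in heterozygous callus. All null values were the lower ones, as for Irgm1. This held in 1 of the 16 genes (6.25%), against 5.99% of all genes. The Gbp6 difference of -0.94 (SE 0.28) lay between -1.18 and -0.66 as single arrays were left out. The GTPase Irgm2 differed by -0.28 (SE 0.19), the proteasome activator Psme1 by 0.29 (SE 0.19) and the class I light chain B2m by 0.26 (SE 0.28), with overlap. Limma gave an adjusted p of 0.999 for each of these named genes.

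Macrophage markers had an array order like that of the members. Centred on each gene's own mean, the type I targets averaged 0.68, -0.57 and 0.02 on the null arrays and 0.18, -0.72 and 0.41 on the heterozygous arrays. The GTPases averaged 0.27, -0.26 and -0.07 on the null arrays and 0.12, -0.51 and 0.45 on the heterozygous arrays. The macrophage markers averaged 1.03, -0.32 and 0.26 on the null arrays and -0.30, -0.71 and 0.04 on the heterozygous arrays. These averages ranked the 3 arrays of each genotype alike. All 13 measured macrophage markers had the higher mean in null callus, against 49.7% of all genes, and so did all 10 endothelial markers. Of the 13, 12 were highest on null replicate 1, against 25.0% of all genes. On heterozygous replicate 2, 11 were lowest, against 17.6% of all genes, while Cd163 and Marco were lowest on heterozygous replicate 3. On every array, 12 of the 13 lay above the background guide, and Marco lay at 3.19 on heterozygous replicate 3, within it. The defining marker Adgre1 was between 7.78 and 8.91 in null callus and between 7.04 and 8.53 in heterozygous callus.

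The erythroid and neutrophil markers ran against the members on null replicate 1 and heterozygous replicate 3. The 11 erythroid genes averaged -2.50, 1.42 and 0.68 on the null arrays and 1.24, 1.26 and -2.11 on the heterozygous arrays. The neutrophil genes averaged -2.62, 1.75 and 1.18 on the null arrays and 1.41, 1.36 and -3.07 on the heterozygous arrays. The mean of the 15 T and NK cell markers stayed between -0.11 and 0.10 on all arrays, although 5 of them ranged over more than 1. The part of macrophage or marrow content in the members' swing was not tested. Without null replicate 1 and heterozygous replicate 3, 21 of 32 members had the higher mean in null callus and 0 passed limma's test, and with a marrow score as a covariate the counts were 24 and 0. Null replicate 1 and heterozygous replicate 1 were the arrays with Xist, and the part of sex in the members' swing was not tested.

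**Figure D4:**
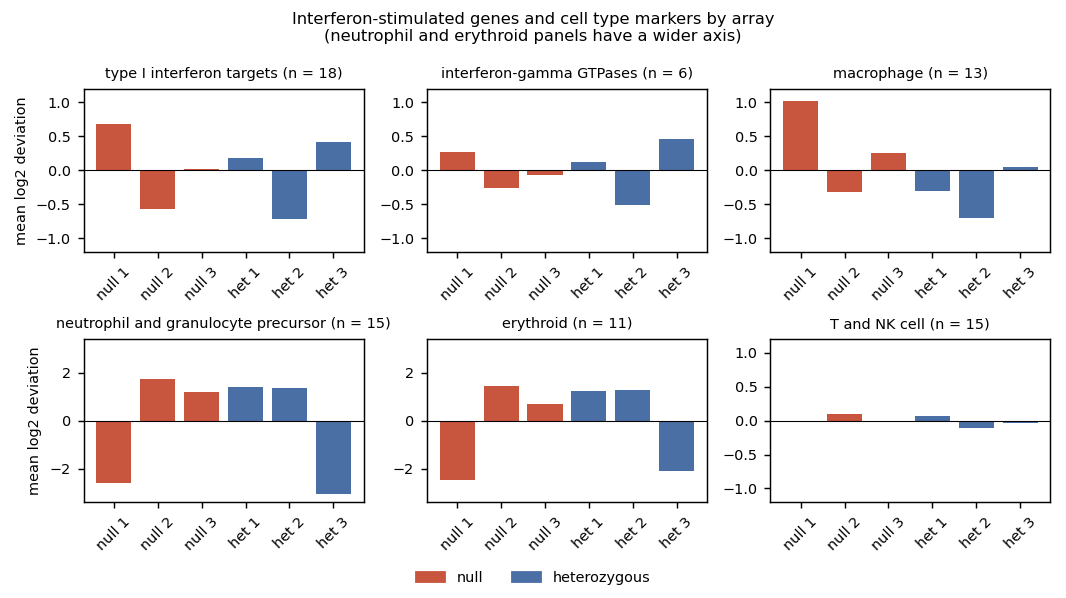
Mean log2 deviation from each gene's own mean over the 6 arrays (vertical axis) for the type I targets, the interferon-gamma GTPases and 4 lists of cell type markers, by array, null on the left; n is the number of genes, and the neutrophil and erythroid panels have a wider axis. The type I targets and GTPases are high on null replicate 1 and heterozygous replicate 3, where the neutrophil and erythroid lists are lowest (-3.07 to -2.11), and the mean of the T and NK cell list stays near 0.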

How the data were processed

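Callus RNA of 3 null and 3 heterozygous samples was measured on 1-colour Affymetrix Mouse 430_2 arrays. The deposited values are log2 signals per probe set, as judged from their range, with array medians of 4.55 to 4.59. The steps and software with which the authors made these log2 values were not given in the sources used here. Normalised columns remove any shift common to all genes, and a floor at low signal compresses weak differences.

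Of 45101 probe sets, 64 controls were left out and 45037 were tested with limma 3.58.1 in R 4.3.3 (lmFit, eBayes, two-sided, null minus heterozygous), with Benjamini-Hochberg adjustment over all of them and a threshold of 0.05. Residual degrees of freedom were 4 and the prior added 2.50. Symbols came from the platform's probe table, in which 34945 probe sets have 1 symbol, 932 several and 9160 none listed. Of several probe sets of a gene, the brightest on average was used. The fit was tested on simulated data with independent noise for each probe set. Swings shared by many genes, as on these arrays, were not simulated, so that test does not measure the power here.

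Every member was to be named. All 6 values are given for members without overlap or with an unadjusted p under 0.05, and for the 2 with the widest range in each role group. Up to 4 genes with the lowest p in each pathway list, and Ifnb1 and Ifng, could be named with values. An item withheld from this text is not reported here. Other genes given with values were chosen after these were seen. The members, lists and tests were chosen with earlier results of these data known. Alternatives were other normalisations, array weights, a trended prior, a filter that dropped probe sets under the median, testing by gene, averaging the probe sets of a gene, marrow and sex-linked scores as covariates, an adjusted p of 0.1 and leaving out arrays. The labels give no replicate numbers. Those used here follow the order of the samples within each group and link no samples between groups, and no pairing was used. Promoters are RefSeq sequences on GRCm38.p6, matched by symbol for 27 of 34 members.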

Additional observations from a re-analysis of the deposited data

How the results depend on the processing

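No member passed limma's test under any of the 17 other settings or at an adjusted p of 0.1, and Irgm1 was the 1 member at an unadjusted p under 0.05 in each of the 17. The lowest adjusted p among the members was 0.462 with array weights and 1 without heterozygous replicate 1. The number of members with the higher mean in null callus, 24 of 32, was 13 with array weights. It ran from 5 to 27 as single arrays were left out, and was 21 to 25 in the other settings with all 32 members and 23 of 30 with the filter at the median level. The number of probe sets that passed, 0 as reported, was 1 once a marrow score entered as covariate, and 0 in the others. The median difference of the type I targets, 0.05, ran from -0.23 to 0.43 and that of the GTPases, 0.06, from -0.23 to 0.29 as single arrays were left out. With array weights these medians were -0.06 and -0.07. The causes were not tested. All 542 differences of single members under the alternatives moved by less than the spread between replicates, taken as the SD within groups. With 3 arrays a group, leaving out 1 array cannot move a difference by more than this spread. For those settings the result was therefore fixed in advance, and 27 of the 32 members changed direction in at least 1 of them. Pseudocounts do not apply, because the values were log2 already. No paired analysis was possible because the labels give no replicate numbers. With 3 arrays a group, and with low signals near a floor, differences smaller than the replicate spread could not be detected.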

Other observations

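Among further type I targets, Trim34a differed by 1.13 (SE 0.61, null minus heterozygous, log2), but on 3 arrays it lay within the background guide. Ifitm1, which codes for a membrane protein that restricts virus entry, differed by 0.96 (SE 0.56). The Ifitm1 difference ran from 0.32 to 1.47 as single arrays were left out. In both genes the groups overlapped, and limma's adjusted p was 0.999. Siglech, a marker of plasmacytoid dendritic cells, lay between 3.99 and 4.20 in null callus and between 4.13 and 4.53 in heterozygous callus. It was 1 of 3 dendritic cell markers, of 11 measured, with the lower mean in null callus. The other 8 had the higher mean there, and the median difference of the list was 0.09. The chemokine Cxcl9 was at 5.85, 5.30 and 5.66 in null callus and at 5.93, 4.02 and 7.17 in heterozygous callus, so its 8.90-fold range lay within heterozygous callus. These genes were chosen after their values were seen.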
